A study of Mus musculus with 4 samples.

Results

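The genes described here are 38 genes of DNA replication and mitosis, 19 that copy the genome or carry cells from G1 into S phase and 19 that act in mitosis. They were followed in J558, a plasmacytoma line of BALB/c (H-2Ld) mice that secretes antibody. A gene was represented by the probe set with its symbol in the platform annotation, the one with the highest mean log2(signal + 16) where there were several. That gave 37 of the 38 genes, all 19 replication genes and 18 mitosis genes, out of 18193 genes named on the array, and cyclin B1 (Ccnb1) was not analysed here. All 37 were among the 10475 genes bright enough to be tested.

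The study compared 2 control clones with 2 clones in which activation-induced cytidine deaminase (AID), the enzyme of somatic hypermutation and class switching, was targeted by a silencing vector. Control clones carried that vector empty, and all 4 clones were given a neomycin resistance vector besides and were isolated under G418. The labels arrange them as 2 pairs, each of 1 control and 1 AID-silenced clone. Every value comes from 1 array per clone, so a difference between groups cannot be told apart from differences between single clones, and fewer cycling cells cannot be told apart from less RNA per cycling cell.

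Replication is prepared in G1, when Cdc6 and Cdt1 load the MCM helicase onto origins. It takes place in S phase, when cyclin E with its kinase activates the helicase and the polymerases, clamp and nucleases copy the strands. Many of these genes are transcribed at the G1 to S transition under E2F factors, which the retinoblastoma protein Rb restrains. Mitotic genes peak later, under a complex that binds the cell cycle homology region (CHR) and works with NF-Y at CCAAT boxes. A dividing plasmacytoma uses both sets, whereas normal plasma cells leave the cycle.

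Promoter letters are printed for 6 genes, since they show the E2F, CHR and CCAAT arrangements found among the replication and mitosis genes. RefSeq promoters (GRCm38.p6, 250 bases before to 50 after the start) were at hand for 14 replication genes, with 17 promoters, and 15 mitosis genes, with 15 promoters, Ccnb1 included, 29 of the 38 genes in all. Both strands were searched for the E2F letters TTCCCGC or else TTGGCGC or else TTCGCGC or else TTGCCGC, for the CHR letters TTTGAA or else TTCGAA, and for CCAAT. An E2F match was present in 10 of 17 replication promoters (58.8%) and 3 of 15 mitosis promoters (20.0%), against 9.57% of all 32851 promoters and 17.2% of the 10908 promoters of tested genes. A CHR match was present in 12 of 15 mitosis promoters (80.0%) and 4 of 17 replication promoters (23.5%), against 19.2% of all promoters. CCAAT was present in 14 of 15 mitosis promoters (93.3%) and 11 of 17 replication promoters (64.7%), against 37.4% of all. CHR and CCAAT stood together in 12 of 15 mitosis promoters, against 7.52% of all. In 2 replication promoters and 1 mitosis promoter an E2F match overlapped a CCAAT match. These matches describe the letters only, and the binding of any factor was not measured.
The 200 bases before the start are given 5′ to 3′ on the gene's strand, with every match in capitals. In the order printed they are chr10:69352913-69353112 (minus strand), chr4:118437344-118437543 (minus), chr19:37376182-37376381 (plus), chr8:75109309-75109508 (plus), chr11:98907951-98908150 (plus) and chr16:18811973-18812172 (minus).
Cdk1: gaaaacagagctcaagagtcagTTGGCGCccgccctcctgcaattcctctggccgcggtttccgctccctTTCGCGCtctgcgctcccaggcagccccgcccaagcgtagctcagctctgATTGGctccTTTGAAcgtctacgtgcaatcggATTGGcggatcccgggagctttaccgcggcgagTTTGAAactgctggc
Cdc20: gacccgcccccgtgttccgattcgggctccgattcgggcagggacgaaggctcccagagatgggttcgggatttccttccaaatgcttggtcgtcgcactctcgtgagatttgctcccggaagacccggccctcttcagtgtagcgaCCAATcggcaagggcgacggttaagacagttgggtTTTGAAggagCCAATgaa
Kif11: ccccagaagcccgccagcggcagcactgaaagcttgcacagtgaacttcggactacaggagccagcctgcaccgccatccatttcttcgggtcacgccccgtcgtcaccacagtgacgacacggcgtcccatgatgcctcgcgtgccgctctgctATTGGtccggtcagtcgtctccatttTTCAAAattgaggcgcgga
Mcm5: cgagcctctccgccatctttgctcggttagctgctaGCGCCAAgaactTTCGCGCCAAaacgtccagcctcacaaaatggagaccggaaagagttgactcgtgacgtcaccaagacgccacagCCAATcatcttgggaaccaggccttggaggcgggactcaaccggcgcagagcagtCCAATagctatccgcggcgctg
Cdc6: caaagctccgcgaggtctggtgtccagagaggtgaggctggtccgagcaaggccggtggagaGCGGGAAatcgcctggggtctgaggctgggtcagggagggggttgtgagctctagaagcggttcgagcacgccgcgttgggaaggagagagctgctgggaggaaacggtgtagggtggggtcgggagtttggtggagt
Cdc45: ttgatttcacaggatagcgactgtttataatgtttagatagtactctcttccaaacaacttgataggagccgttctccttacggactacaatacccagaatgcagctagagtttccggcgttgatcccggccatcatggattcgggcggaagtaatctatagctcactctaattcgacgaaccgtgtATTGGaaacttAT
In Cdk1 and Cdc20 a TTTGAA begins at −15 and −18 from the start, and the same element on the other strand begins at −19 in Kif11, in each case with a CCAAT box, on either strand, farther upstream, at −48, −53 and −45. Mcm5 and Cdc6 have no CHR match and hold E2F letters. In Mcm5 these begin at −164, −152 and −149, and in Cdc6 at −138. Cdc45 has no E2F match in this window, and the capitals at its end belong to a CCAAT match that runs past the start. It does have CHR matches in the searched promoter, at −240 and 10 from the start, outside the printed bases.

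All 4 arrays had been scaled alike, with median signals of 52.7 to 54.9. The 7 plasma cell markers, among them Igha, Jchain and Xbp1, had signals from 1435 to 51693. Markers of other cells were low, at most 85.2 for the 4 T cell genes measured, 293 for the 5 myeloid genes and 131 for the 5 fibroblast genes, and Cd4 did not exceed 7.5 on any array. The bacterial control probe sets reached at most 27.2 to 41.9, and the 37 cell cycle genes had signals from 362 to 20987 on every array.

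Between AID-silenced and control clones no replication or mitosis gene passed the test, and their median differences were close to that of all tested genes. Signals are given for pair 1 and then pair 2, and differences are AID-silenced minus control on the log2(signal + 16) scale. Limma called 0 of the 37 genes at an adjusted p under 0.05, where it called 0.00888% of all tested probe sets, and the lowest adjusted p was 0.9996. A fit that added the pair again called 0 of the 37, against 0.0355% of all probe sets. An unadjusted limma p under 0.05 was reached by 1 of the 37, Cdc45, against 407 of the 10475 tested genes and 3.49% of all probe sets. Of the 37, 13 were higher in both pairs, 10 lower in both and 14 opposite, where 26.7% of all tested genes were higher in both and 27.5% lower in both. The median log2 difference was 0.06 for replication genes and 0.06 for mitosis genes, against 0.00 for all tested genes. For 34 of the 37 the difference of the group means was under 0.5 log2 units. The median half-width of the 95% intervals, which are not adjusted for the number of tests, was 0.56. Smaller differences in a single gene would in most cases not have been resolved. Larger ones could also miss the adjusted threshold, as Cdc45 did at 0.80. For 24 of the 37 genes the gap between the control clones was larger than the difference between the groups. A gap between 2 single clones varies more than a difference between means of 2 clones, so a high count arises without any group effect. The same count was not made over all tested genes, so whether it is high for these genes was not tested.

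**Figure D1:**
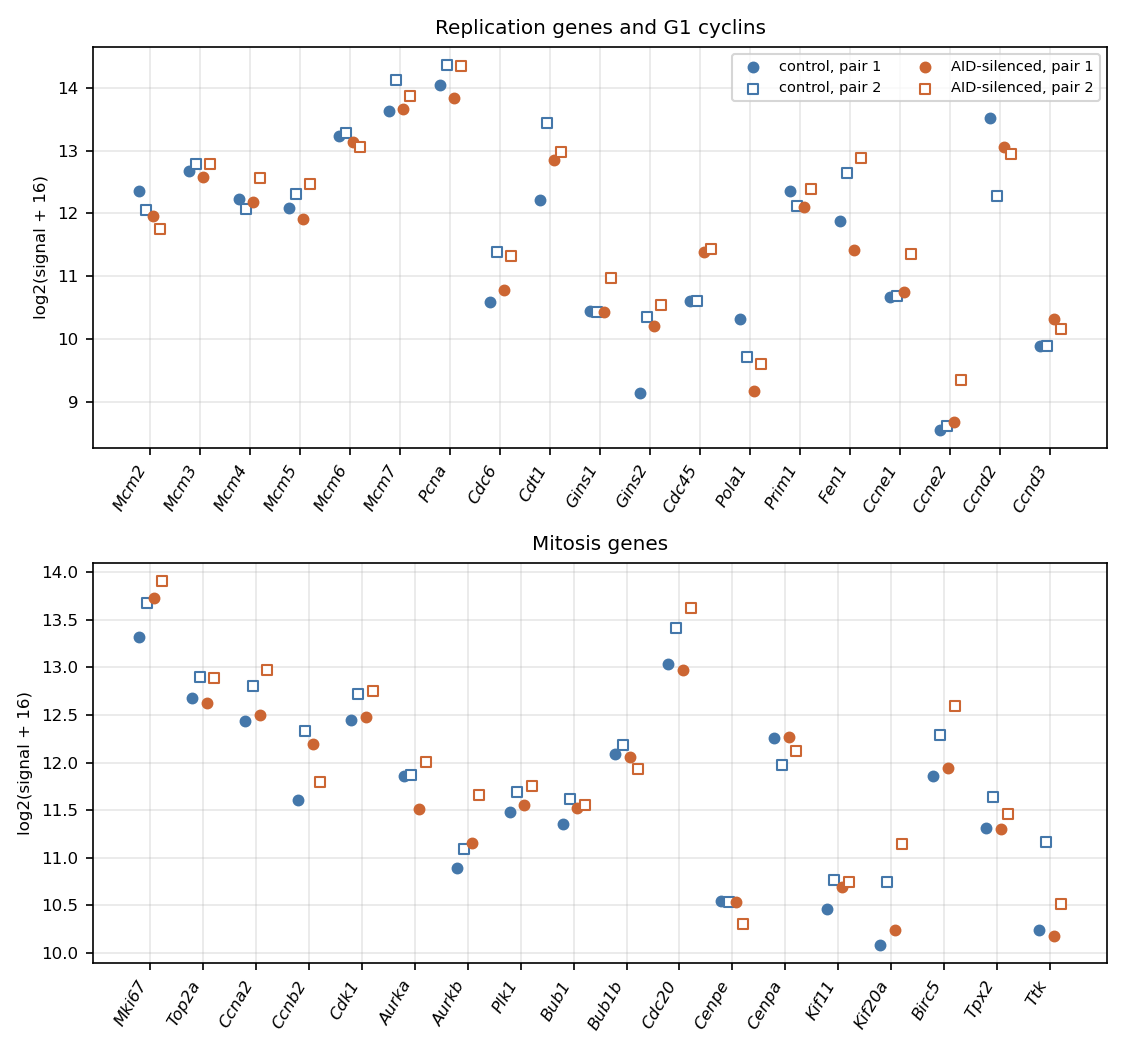
Level of each gene on each array, as log2(signal + 16), for the 19 replication genes (top) and 18 mitosis genes (bottom); circles are pair 1, squares pair 2, blue control and orange AID-silenced clones. Cdc45 separates by group, and Fen1, Kif20a and Cdc20 separate by pair.

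Cdc45, the helicase cofactor that joins MCM and GINS at the firing origin, had the largest difference of the 37 genes. Its signals were 1542 and 1544 in control and 2657 and 2745 in AID-silenced clones. The control clones were level with each other, as were the AID-silenced clones, and the groups did not overlap. The log2 difference was 0.80 ± 0.21 (SE, n = 2 per group), 1.74-fold, with a 95% interval of 0.31 to 1.30 and limma adjusted p = 0.9996. With the pair as a second term the adjusted p was 0.397, the lowest over its alternatives, where it ran up to 1.00. Its second, dimmer probe set was higher in both pairs as well, by 1.02 and 0.59, but did not repeat the separation. Its signals were 51.6 and 133.7 in control and 121.4 and 209.6 in AID-silenced clones. There the groups overlapped, and the control clones differed by 1.15. Cdc45 lies on chromosome 16, where the 349 tested genes had a median log2 difference of 0.27 and 54.7% were higher in both pairs. The part of the chromosome in the difference of Cdc45 was not tested.

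Neither licensing factor, Cdt1 or Cdc6, kept its direction across the pairs. Cdt1, the MCM loader that geminin inhibits, had signals of 4711 and 11076 in control and 7362 and 8082 in AID-silenced clones, and the control clones were farther apart than the groups. Its pairs went opposite ways, at 0.64 and −0.45, and the second probe set bright enough to test gave 0.72 and −0.24. Cdc6, the ATPase that recruits MCM to the origin recognition complex, had 1529 and 2658 in control and 1738 and 2547 in AID-silenced clones. Its groups overlapped, with a log2 difference of 0.06 ± 0.34 (SE, n = 2 per group). The pairs of Cdc6 had the same signs as those of Cdt1, at 0.18 and −0.06.

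The 6 MCM genes encode the hexameric ring of the replicative helicase, and their differences lay between −0.34 and 0.22. Mcm2 was the lowest of them, at 5203 and 4255 in control and 3981 and 3443 in AID-silenced clones, with both AID-silenced clones below both control clones. Mcm6 also had both AID-silenced clones below the control clones, at 9609 and 9982 against 8993 and 8484, a log2 difference of −0.16 ± 0.18 (SE, n = 2 per group). The other Mcm6 probe set bright enough to test was higher in both pairs, at 0.03 and 0.13, and with the probe sets averaged the difference was −0.04. Mcm4, the other member on chromosome 16, was level in pair 1 and higher in the AID-silenced clone of pair 2, with 4786 and 4266 in control and 4634 and 6016 in AID-silenced clones. The second probe set of Mcm4 repeated this at −0.10 and 0.99. Mcm3, Mcm5 and Mcm7 had overlapping groups, with log2 differences of −0.05, −0.01 and −0.11.

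Beyond Cdc45, the elongation machinery was mixed. Gins2, a subunit of the GINS complex, had 553 and 1293 in control and 1174 and 1478 in AID-silenced clones, so that a single control clone was low and the other 3 clones lay together. The second Gins2 probe set showed the same low clone, at 299.7 and 826 in control and 856 and 871 in AID-silenced clones. Gins1, another GINS subunit, had 1380 and 1372 in control and 1364 and 1999 in AID-silenced clones, where 1 AID-silenced clone stood above 3 level ones. Pola1, the catalytic subunit of the polymerase alpha that makes the first DNA of each fragment, had 1263 and 824 in control and 563 and 762 in AID-silenced clones, and both AID-silenced clones were below both control clones. Its log2 difference was −0.63 ± 0.31 (SE, n = 2 per group), and −1.14 in pair 1 against −0.11 in pair 2. Prim1, the primase subunit that makes the RNA primer, differed by −0.26 and 0.27 in pairs 1 and 2, and its second probe set by 0.01 and 0.81.

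Pcna, the sliding clamp, and Fen1, the nuclease that trims Okazaki fragments, did not follow the groups. Signals of Pcna were 16869.7 and 20987 in control and 14677 and 20858 in AID-silenced clones. For Fen1 they were 3751 and 6382 in control and 2709 and 7509 in AID-silenced clones, with the AID-silenced clones at the bottom and at the top of the range. The Fen1 interval for the group difference, −1.33 to 1.09, was the widest of the 37.

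Among the G1 and S cyclins, Ccnd3, Ccne1 and Ccne2 had both AID-silenced clones above both control clones, and Ccnd2 did not. Ccne1 had 1607 and 1636 in control and 1700.2 and 2596 in AID-silenced clones, Ccne2 362 and 379 in control and 393 and 637 in AID-silenced clones. In both the AID-silenced clone of pair 2 was the high one, and the log2 differences were 0.37 ± 0.27 (SE, n = 2 per group) and 0.42. The second Ccne1 probe set instead gave an even step, at 0.34 in pair 1 and 0.31 in pair 2. Ccnd3, a D cyclin used by B lineage cells, had 935 and 932 in control and 1264 and 1125 in AID-silenced clones, a log2 difference of 0.35 ± 0.23 (SE, n = 2 per group). The second probe set of Ccnd3 was also higher in both pairs, at 0.54 and 0.21, and the third, with signals of at most 32.2, was lower in both. Ccnd2, the D cyclin induced by B cell mitogens, had 11782 and 4942 in control and 8483 and 7833 in AID-silenced clones. Under AID silencing all 7 of its probe sets were lower in pair 1 and higher in pair 2, the brightest at −0.47 and 0.66.

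Across the 37 genes, 6 had both AID-silenced clones above and 4 had both below the control clones. The shares of tested genes were 14.3% above and 14.4% below. At least 2-fold in either pair were 2 of the 37, Gins2 and Pola1, each in pair 1, against 10.6% of tested genes.

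Mitosis genes had a median absolute within-pair difference of 0.16 and replication genes of 0.26, where that of all tested genes was 0.25. Mki67, the proliferation marker that coats mitotic chromosomes, had 10204 and 13054 in control and 13561 and 15391 in AID-silenced clones, and both AID-silenced clones were above both control clones. Its log2 difference was 0.32 ± 0.21 (SE, n = 2 per group), with a 95% interval of −0.17 to 0.82. Aurkb, the kinase of the chromosomal passenger complex, had 1885 and 2161 in control and 2270.1 and 3226 in AID-silenced clones and was the only other mitosis gene with both AID-silenced clones on top. Its second probe set was higher in both pairs too, at 0.10 and 0.65. Birc5, the survivin subunit of that complex, had 3691 and 4979 in control and 3911 and 6171 in AID-silenced clones, so the groups overlapped.

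Of the genes that drive mitotic entry, the kinase Cdk1 was nearly level between groups within each pair and the B cyclin was not. Cdk1 had 5559.8 and 6747 in control and 5675 and 6875 in AID-silenced clones, a difference of 0.03 in each pair. Ccna2, the S and G2 cyclin, had 5547 and 7115 in control and 5764 and 8048 in AID-silenced clones. Ccnb2, the only B cyclin analysed here, had 3095 and 5127 in control and 4667 and 3526 in AID-silenced clones. Its pairs went opposite ways, at 0.59 and −0.54. Plk1, the polo kinase of centrosomes and kinetochores, had 2843 and 3288 in control and 2989.7 and 3428 in AID-silenced clones, and its log2 difference was 0.07 ± 0.21 (SE, n = 2 per group). Aurka, the spindle pole kinase, and Tpx2, its activator on spindle microtubules, differed by −0.11 and −0.09.

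The checkpoint and kinetochore genes overlapped between groups, apart from Bub1b at its brightest probe set. Bub1, Bub1b and Ttk belong to the spindle assembly checkpoint, which delays anaphase until chromosomes are attached, and Cdc20 is the anaphase activator that the checkpoint holds back. Ttk had 1196 and 2277 in control and 1144 and 1445 in AID-silenced clones, where the control clone of pair 2 stood alone. Bub1b had 4359 and 4636 in control and 4255 and 3887 in AID-silenced clones, with both AID-silenced clones below the control clones. Its log2 difference was −0.14 ± 0.20 (SE, n = 2 per group). At the other Bub1b probe set bright enough to test the groups overlapped, with pair differences of 0.03 and −0.30. Bub1 and Cdc20 differed by 0.05 and 0.08. Cenpa, the centromeric histone H3, and Cenpe, the kinetochore kinesin, differed by 0.08 and −0.12. Kif11, the kinesin that pushes spindle poles apart, Kif20a, the kinesin of cytokinesis, and Top2a, which decatenates sister chromatids, differed by 0.10, 0.28 and −0.03. Kif20a lies on chromosome 18, where the 260 tested genes had a median log2 difference of 0.24.

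**Figure D2:**
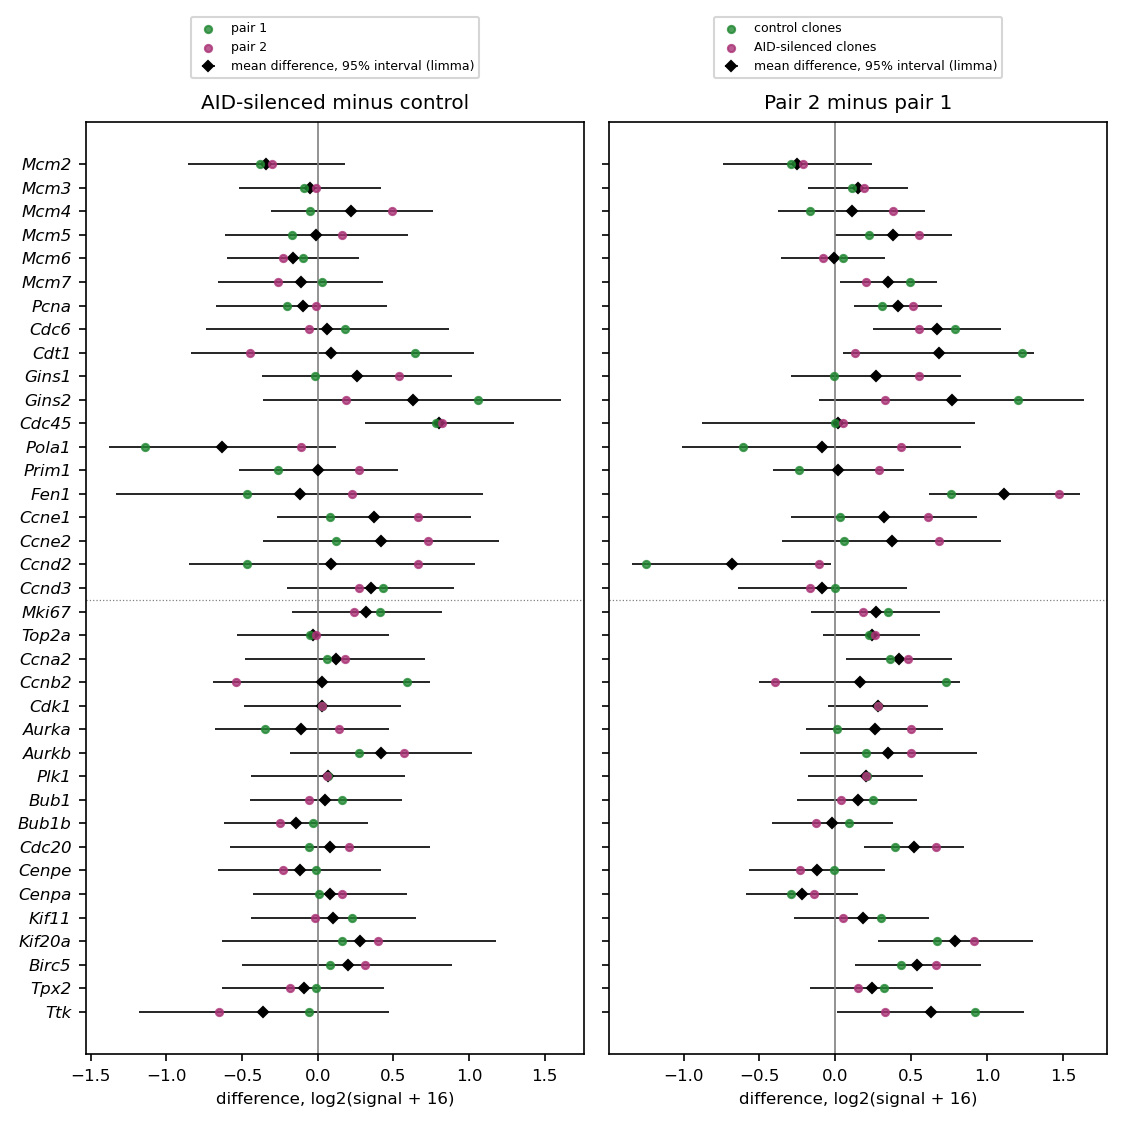
Differences in log2(signal + 16) for each gene, AID-silenced minus control (left) and pair 2 minus pair 1 (right); diamonds and bars are the mean difference with its 95% limma interval, coloured points the 2 differences that make it up. On the left only the Cdc45 interval, 0.31 to 1.30, excludes 0, and on the right most mitosis genes lie to the right of 0.

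Of the wider cell cycle lists, 0 genes were called in any, and the counts are read beside the 26.7% of all tested genes higher and 27.5% lower in both pairs. Of 39 other replication genes tested, 15 were higher in both pairs and 11 lower, with a median of 0.06. Rfc4, a clamp loader subunit on chromosome 16, had 4494 and 3779 in control and 5742 and 6083 in AID-silenced clones, and its second probe set was higher in both pairs too. Tk1, the salvage thymidine kinase, had 2317 and 1284 in control and 2597 and 3393 in AID-silenced clones, with a log2 difference of 0.78 ± 0.33 (SE, n = 2 per group), most of it in pair 2. Orc5, an origin recognition subunit, had 1404 and 1806 in control and 979.9 and 1083 in AID-silenced clones. Tyms, thymidylate synthase, differed by 0.61 at its brightest probe set, whose signals were no higher than 177, and by −0.01 with its probe sets averaged.

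Of 46 other mitosis genes, 15 were higher and 4 lower in both pairs, with a median of 0.04. Nuf2, of the kinetochore NDC80 complex, and Ncaph, a condensin subunit, had log2 differences of 0.36 and 0.38. Kif23, a kinesin of the central spindle, had 1485 and 2462 in control and 1379.7 and 1278 in AID-silenced clones, with 1 control clone far above the rest. Incenp, the scaffold of the passenger complex, differed by 0.60 at its brightest probe set, and by 0.04 and 0.06 in pairs 1 and 2 at the third.

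Of 15 cell cycle transcription factor genes, 6 were higher and 2 lower in both pairs, with a median of 0.20. E2f8, a repressor of the E2F family, had 603 and 649.8 in control and 802 and 1427 in AID-silenced clones, but its second probe set gave 0.32 and −0.05, and with both averaged the difference was 0.45 in place of 0.76. E2f7, its partner, had 522 and 755 in control and 721 and 980.2 in AID-silenced clones. E2f4, a repressive factor of resting cells, had 1671 and 919 in control and 906 and 865 in AID-silenced clones, the first clone standing above 3 like ones. Lin9, of the complex that binds the CHR, differed by 0.49. Of 10 further G1 genes, 4 were higher and 3 lower, among them the phosphatase gene Cdc25a at 0.38, Ccng2 at 0.42, Skp2 at −0.38 and Ccnh at −0.19.

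Of 15 brakes tested, 4 were higher and 3 lower in both pairs. Cdkn2c, the p18 inhibitor of Cdk4 and Cdk6 that plasma cells use to leave the cycle, had 1416 and 827 in control and 1879 and 1765 in AID-silenced clones, a log2 difference of 0.74 ± 0.30 (SE, n = 2 per group). Btg2, an antiproliferative gene, differed by 0.40, Cdkn2d by 0.41 and the checkpoint kinase gene Chek2 by 0.14. Limma adjusted p was 0.9996 for every gene named from these lists.

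Between the pairs, 25 of the 37 genes stood higher in pair 2 in control and AID-silenced clones alike. Of the others, 5 were lower in both groups and 7 opposite, where 26.4% of tested genes were higher in both and 38.5% lower. Differences are pair 2 minus pair 1, the control clones first. Among the mitosis genes 14 of 18 were higher in both groups and 2 lower, Cenpe and Cenpa. Among the replication genes 11 of 19 were higher and 3 lower, namely Mcm2, Ccnd2 and Ccnd3. Mitosis genes had a median difference of 0.25, at 0.29 in the control clones and 0.23 in the AID-silenced clones. Replication genes had 0.27, at 0.05 and 0.33, and the array of 1 clone, AID-silenced in pair 2, carried much of it, since dropping that array gave a median of 0.01. The median of all tested genes was −0.07.

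Limma called 0 of the 37 between pairs, with 0 calls over all probe sets. An unadjusted limma p under 0.05 was reached by 11 of the 37 and by 1621 of the 10475 tested genes. Over all probe sets it was reached by 3037 (13.5%). With the group as a second term limma called 4 probe sets (0.0178%), again 0 of the 37. The list shares its brightness with other genes. At or above the dimmest of the 37 genes, 6722 tested genes had a median difference of −0.03. Of these, 30.4% were higher in pair 2 in both groups. At or above the median signal of the 37 genes, 1155 tested genes had a median difference of 0.15 and 54.5% of them were higher in pair 2 in both groups. Below the dimmest of the 37 it was 19.3%, and the part of brightness in the difference was not tested. All 7 plasma cell markers also had higher means in pair 2, by a median of 0.29. The values were the authors' scaled signals. With arrays scaled to equal medians instead, the median of all tested probe sets moved from −0.04 to 0.10 and 15 of 18 mitosis and 13 of 19 replication genes were higher and 1 of each lower, beside 39.4% of all tested genes higher. With quantile normalization 12 mitosis and 11 replication genes were higher, beside 29.0%.

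Fen1 differed most, with 3751 and 2709 in the pair 1 clones and 6382 and 7509 in the pair 2 clones. Both pair 2 clones lay above both pair 1 clones, and the log2 difference was 1.11 ± 0.21 (SE, n = 2 per pair), with a 95% interval of 0.62 to 1.61 and limma adjusted p = 0.245. Its second probe set gave 0.17 in the control clones and 0.90 in the AID-silenced clones. Cdc6 had 1529 and 1738 in the pair 1 clones and 2658 and 2547 in the pair 2 clones, a log2 difference of 0.67 ± 0.17 (SE, n = 2 per pair). Pcna had 16869.7 and 14677 in the pair 1 clones and 20987 and 20858 in the pair 2 clones, a smaller step of 0.41 ± 0.12 (SE, n = 2 per pair) whose interval of 0.12 to 0.70 still left out 0. Cdt1 and Gins2 were higher in pair 2 in both groups, but mostly in the control clones, at 1.23 and 0.13 and 1.20 and 0.33. Of the MCM genes, Mcm5 at 0.38 and Mcm7 at 0.35 were higher, and Mcm2 at −0.25 lower. Ccnd2 was the lowest, with 11782 and 8483 in the pair 1 clones and 4942 and 7833 in the pair 2 clones, and 1 clone, the pair 2 control, lay far under the other 3.

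Of the mitosis genes Kif20a differed most, with 1065 and 1189 in the pair 1 clones and 1699.8 and 2243 in the pair 2 clones, a log2 difference of 0.79 ± 0.21 (SE, n = 2 per pair). Cdc20 had 8363 and 8035 in the pair 1 clones and 10927 and 12663 in the pair 2 clones. Birc5 had 3691 and 3911 in the pair 1 clones and 4979 and 6171 in the pair 2 clones, and in all 3 both pair 2 clones were above both pair 1 clones. All 3 probe sets of Cdc20 were higher in pair 2 in both groups, by 0.38 to 0.66. Cdk1, Plk1 and Top2a showed a small and even step, with pair 2 minus pair 1 values of 0.28 and 0.28 for Cdk1, 0.21 and 0.20 for Plk1 and 0.22 and 0.26 for Top2a in control and AID-silenced clones. Ttk gave 0.92 and 0.33 and Ccna2 0.36 and 0.48. Cenpa went the other way at its brightest probe set, at −0.29 and −0.14.

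Without overlap between the pairs, pair 2 was above in 20 of the 37 genes and below in 3, Ccnd2, Cenpe and Cenpa. For Ccnd2 this held at 2 of its 7 probe sets, and the other 5 were higher in pair 2 among the AID-silenced clones, by 0.03 to 0.71. The other probe set bright enough to test did not repeat it for Cenpa or Cenpe. In control and AID-silenced clones it gave −0.39 and 0.19 for Cenpa and −0.14 and 0.13 for Cenpe. The shares of tested genes were 19.5% above and 29.3% below. At least 2-fold in either group were 4 of the 37 (Cdt1, Gins2, Fen1 and Ccnd2), against 14.5% of tested genes.

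**Figure D3:**
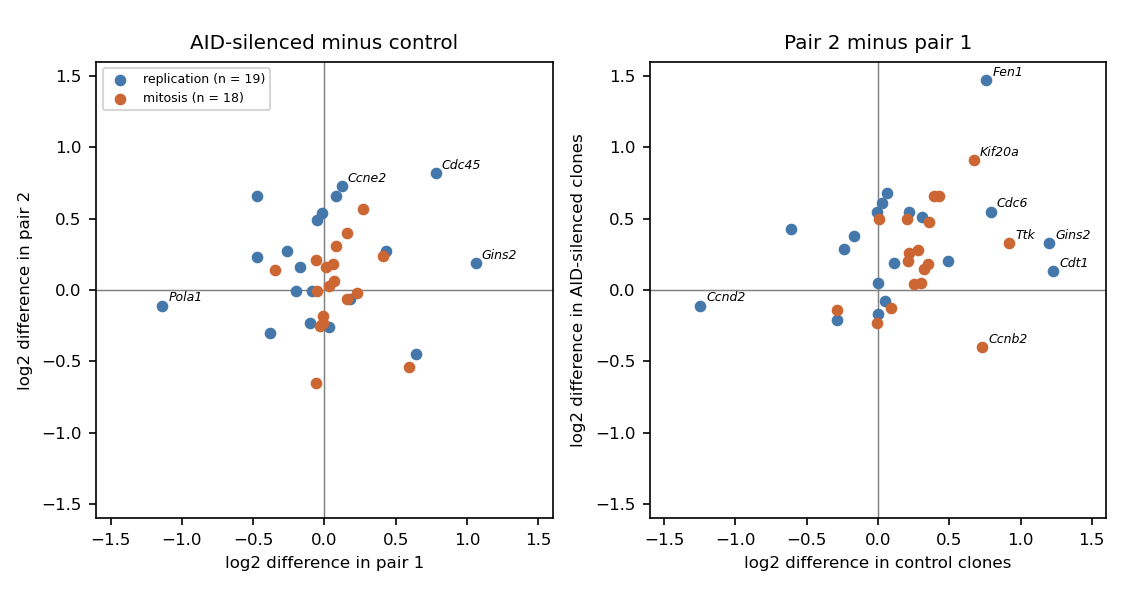
The 2 log2 differences of each gene against each other, AID-silenced minus control in pair 1 and pair 2 (left) and pair 2 minus pair 1 in control and AID-silenced clones (right); blue points are replication and orange points mitosis genes. On the left the points spread around 0 in all quadrants, and on the right 14 of 18 mitosis genes lie in the upper right quadrant.

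Among the other lists, the shares of genes higher and lower in pair 2 in both groups are read beside the 26.4% and 38.5% of all tested genes, with no test of a list. Of 39 other replication genes 21 were higher in pair 2 in both groups and 7 lower, and of 46 other mitosis genes 25 were higher and 2 lower. Of 15 transcription factor genes 6 were higher, 1 lower and 8 opposite, and of 10 G1 genes 4 were higher and 2 lower, with a median of 0.04. Of 15 brakes 3 were higher and 8 lower, with a median of −0.22, but 5 were higher and 4 lower after median scaling. Rb1, the retinoblastoma gene, had 1837 and 1853 in the pair 1 clones and 679.7 and 593 in the pair 2 clones, 2.86-fold lower in pair 2. Its log2 difference was −1.52 ± 0.19 (SE, n = 2 per pair), with limma adjusted p = 0.200, and 0.0925 with the group as a second term, in a range of 0.0925 to 0.593 over its alternatives. Its other probe set was below the filter, with signals of at most 23.1, and did not repeat the difference. Cdkn1b, the p27 inhibitor of cyclin E and its kinase, had 1719 and 1718 in the pair 1 clones and 882 and 861 in the pair 2 clones, a log2 difference of −0.97 ± 0.18 (SE, n = 2 per pair). The 2 groups were level within each pair. Its second probe set, with signals of at most 83.9, gave −0.53 and −0.06. Cdkn2d, the p19 inhibitor of Cdk4 and Cdk6, had 1039 and 1208 in the pair 1 clones and 416 and 639 in the pair 2 clones. Skp2, the F-box protein that marks p27 for degradation, had 1018 and 834 in the pair 1 clones and 1749 and 1254 in the pair 2 clones, and all 6 of its probe sets were higher in pair 2 in both groups. Limma adjusted p was 0.245 for Cdkn1b, 0.252 for Cdkn2d and 0.325 for Skp2.

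**Figure D4:**
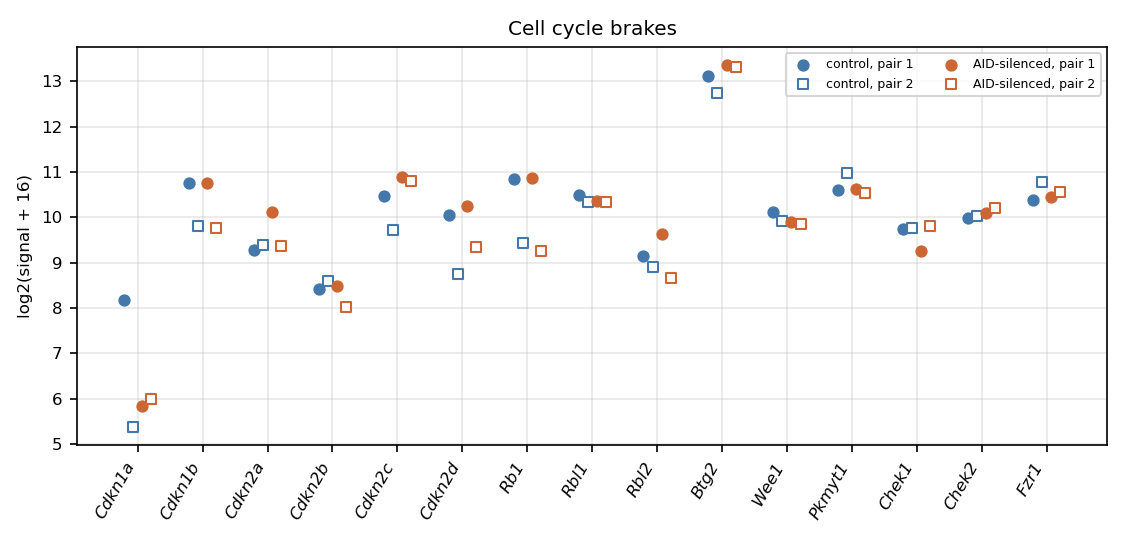
Level of the 15 tested cell cycle brakes on each array, as log2(signal + 16), with circles for pair 1, squares for pair 2, blue for control and orange for AID-silenced clones. Rb1, Cdkn1b and Cdkn2d have both squares below both circles, and Cdkn1a is high in the control clone of pair 1 alone.

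Cdkn1a, the p53-induced inhibitor p21, was apart in 1 clone. Its signals were 273 and 25.6 in control and 41.7 and 47.6 in AID-silenced clones, and the dimmer probe set gave 182 and 16.2 in control and 13.3 and 18.2 in AID-silenced clones.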

How the data were processed

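RNA of 4 J558 clones was measured, 1 array each. The values the authors deposited are linear intensities per probe set. The submitters' processing notes name MAS5, and its version is not given in the sources used here. Each array's 2% trimmed mean was checked and equalled 500, so no further normalization was applied and log2(signal + 16) was used, which understates differences of dim genes. The 64 Affymetrix control probe sets of 45101 were left out, and a probe set was tested if its mean log2 signal lay in the upper 0.5 (22519 probe sets). A gene took the values of its brightest probe set with a single symbol, and 0 symbols changed through a table of GRCm38.p6 genes. Groups and pairs were compared with limma 3.58.1 (R 4.3.3; lmFit, and eBayes with trend and robust), with Benjamini-Hochberg adjustment over all tested probe sets and a threshold of 0.05. The step was also run on simulated data with planted differences. The simulated noise was independent, without clone or pair structure, so the run does not show the power for these genes. The labels number the pairs but do not say what a pair shares. Pair 2 minus pair 1 correlated between control and AID-silenced clones (r = 0.306, rho = 0.336, across 22519 probe sets, which are not replicates), and an alternative fit took the pair as a block.

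The members and lists were chosen with earlier results of these data known. All 37 genes are named, and of each further list up to 4 genes with the largest difference among those with 1 sign in both pairs. Cdkn1a, Rb1 and Cdkn1b, and the pair values of Cdkn2d and Skp2, were singled out with their values in view. With 2 arrays a group, a p-value reflects how far single clones lie apart, for clonal or technical reasons. The difference between the 2 pairs' effects has no residual degrees of freedom and was not tested. The level of the silenced gene is not reported here. Figures were drawn with matplotlib 3.10.9.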

Additional observations from a re-analysis of the deposited data

Results flagged for a closer look

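In 4 of the 37 genes the AID-silenced clone was higher than its control in one pair and lower in the other, by at least 0.25 log2 units each. The share of all tested genes meeting this rule was not computed, so the count has no background. Pairs opposite by any amount were found in 14 of the 37 and in 4799 of the 10475 tested genes. The 2 differences rest on 1 clone against 1, so the contrast between them was not tested. For Cdt1 they were 0.64 in pair 1 and −0.45 in pair 2, and for Ccnb2 0.59 and −0.54. For Prim1 they were −0.26 and 0.27, and for Ccnd2 −0.47 and 0.66. The second probe set of Prim1 did not repeat the opposite signs, at 0.01 and 0.81.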

How the results depend on the processing

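None of the 37 genes passed limma's adjusted threshold of 0.05 under any alternative, with lowest adjusted p of 0.397 (Cdc45) between groups and 0.130 (Fen1) between pairs. Where an array is left out, the lone clone of its group is assumed to vary like the others. With the pair as a replicate block, 8 probe sets were called between groups in place of 2. Median scaling and a pseudocount of 64 each gave 5 and a pseudocount of 1 gave 1. Leaving out 1 array gave 0 to 146, with 146 without the control clone of pair 1, 52 without that of pair 2, 0 without the AID-silenced clone of pair 1 and 2 without that of pair 2. Between pairs, 4 were called with the group as a second term in place of 0, and leaving out 1 array gave 0 to 59, with 59 without the AID-silenced clone of pair 2. The median group difference of 0.06 ran from −0.12 to 0.26 for replication genes and from −0.09 to 0.18 for mitosis genes when 1 array was left out. For mitosis genes it was 0.07 with quantile normalization, 0.04 with median scaling, 0.06 with a pseudocount of 64 and 0.07 with the mean of a gene's probe sets. The median pair difference ran from 0.01 (without the AID-silenced clone of pair 2) to 0.41 (without the control clone of pair 2) for replication and from 0.22 to 0.29 for mitosis genes. With quantile normalization it was 0.16 for replication and 0.18 for mitosis genes, and with median scaling 0.42 and 0.40. The cause of these moves was not tested.

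Between groups, 11 of the 37 genes kept their sign under all alternatives, and 30 of 37 where no array was left out. The sign turned for Prim1 at −0.02 with median scaling, and, with the mean of a gene's probe sets, for Fen1 at 0.03, Ccnd3 at −0.04, Top2a at 0.02, Bub1b at 0.05, Cdc20 at −0.07, Ttk at 0.07 and Tyms at −0.01. With 1 array left out the log2 difference ran, for Mcm3 from −0.14 to 0.05, Mcm5 from −0.28 to 0.27, Mcm7 from −0.36 to 0.13, Pcna from −0.36 to 0.15, Cdc6 from −0.33 to 0.46, Cdt1 from −0.52 to 0.71, Gins1 from −0.01 to 0.53, Prim1 from −0.14 to 0.15, Fen1 from −0.85 to 0.62, Ccnd2 from −0.53 to 0.72, Top2a from −0.16 to 0.10, Ccna2 from −0.12 to 0.36, Ccnb2 from −0.34 to 0.39, Cdk1 from −0.11 to 0.17, Aurka from −0.36 to 0.14, Plk1 from −0.04 to 0.17, Bub1 from −0.07 to 0.18, Cdc20 from −0.25 to 0.41, Cenpa from −0.07 to 0.23, Kif11 from −0.05 to 0.25, Kif20a from −0.18 to 0.73, Birc5 from −0.13 to 0.52, Tpx2 from −0.25 to 0.07, Ttk from −0.82 to 0.10, Skp2 from −0.76 to 0.01 and Cdkn2d from −0.24 to 1.05. Between pairs, 25 of the 37 kept their sign under all alternatives. It turned with median scaling for Mcm6 at 0.13, Pola1 at 0.06, Ccnd3 at 0.06, Bub1b at 0.13 and Cenpe at 0.02, with quantile normalization for Pola1 at 0.02, Prim1 at −0.05 and Ccnd3 at 0.00, and with the mean of probe sets for Mcm6 at 0.19, Ccnd3 at 0.14, Bub1b at 0.02 and Cenpa at 0.01. With 1 array left out the ranges were, for Mcm4 from −0.14 to 0.35, Mcm6 from −0.13 to 0.10, Gins1 from 0.00 to 0.54, Cdc45 from −0.39 to 0.44, Pola1 from −0.66 to 0.48, Prim1 from −0.11 to 0.16, Ccne1 from −0.01 to 0.65, Ccnd3 from −0.30 to 0.13, Ccnb2 from −0.13 to 0.46 and Bub1b from −0.15 to 0.11. The cause of these turns was not tested. Depth in reads does not apply to arrays, and 4 arrays limit the precision.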
